A study of Mus musculus with 15 samples.

Results

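Adrb1, Adrb3, Adra1a, Adra1b, Adcy5, Adcy6, Adcy9, Grk5 and Chrm2 carry the adrenergic and muscarinic control of cyclic AMP and of phospholipase C in heart muscle. They were taken by gene symbol from the unfiltered count table, where 9 of 9 were found among 55536 genes, and 9 of 9 had enough reads to be among the 17455 genes tested. The study sequenced ribosome-depleted RNA from mouse ventricular nuclei that had been sorted for Pcm1, a centriolar satellite protein that marks the nuclei of cardiomyocytes. Its title names a sex-specific role of the progesterone receptor in heart maturation, and its labels give a genotype of Pgr, the gene of that receptor, and a sex. There were 4 female libraries labelled Pgr_KO, 4 male libraries labelled Pgr_KO, 3 female libraries labelled Pgr_WT and 4 male libraries labelled Pgr_WT. The tissue label carries "3-6" without a unit in all 4 groups, and the sources used here give no age, strain, treatment or construction of the allele. The labels do not tie the replicates to separate animals, so each p-value measures the spread between these samples, which may be technical.

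Noradrenaline and adrenaline act on cardiomyocytes through beta receptors, which couple to Gs and raise cyclic AMP through adenylyl cyclase, and through alpha-1 receptors, which couple to Gq and phospholipase C. Acetylcholine from the vagus opposes the first branch through the muscarinic M2 receptor, which couples to Gi and inhibits adenylyl cyclase. Receptor kinases such as Grk5 phosphorylate occupied receptors and end their signal, and mouse ventricular myocytes are known for beta-1 as their main beta receptor and for types 5 and 6 as their main cyclases.

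The libraries held 24.4 to 139.4 M counted reads (median 49.9 M), so that 3 reads, taken as the floor of detection, equalled 0.0219 to 0.117 CPM (reads scaled to 1 M on TMM library sizes). Pgr stood at 6.10 to 12.5 CPM in the 8 libraries labelled knockout and at 0 to 0.267 CPM in the 7 labelled wild type, against the direction of the genotype label, so genotype is given below only as a label. Knockout and wild type, also where they stand before a sex, name that label and not an established genotype. The female replicate 2 of both labels held 15.5 CPM of 4 Y-linked genes, against 0.226 to 1.28 CPM in the other 5 female libraries, and the wild-type male replicate 2 held 54.2 CPM of Xist, against 0.335 to 2.64 CPM in the other 7 male libraries. Markers of other cell types split the libraries into 6 of high and 9 of low content, at the largest gap of a mean log2 CPM over 31 endothelial, fibroblast and mural genes (4.42 to 5.20 against 1.17 to 2.78). High content was found in 2 of 4 knockout females, 2 of 4 knockout males, 1 of 3 wild-type females and 1 of 4 wild-type males. It held every replicate 1 and no replicate 3 or 4, so content and replicate number cannot be told apart outside replicate 2, where the knockout-labelled libraries were the high ones. The 10 cardiomyocyte markers summed to 42706 to 69994 CPM at high and 56304 to 73913 CPM at low content, and Pcm1 stood at 135 to 239 CPM in the 15 libraries. In such bulk samples fewer cells of a type and less RNA per cell cannot be told apart.

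The count intervals cover whole gene bodies, introns included, and equalled the GENCODE M21 gene spans on GRCm38 for all 9 genes. RefSeq promoter windows (GRCm38.p6, 250 bases before to 50 after the annotated start) were found for 6 of the 9, namely Adrb1, Adra1b, Adcy5, Adcy9, Grk5 and Chrm2, and gave 7 windows because Adra1b has 2. The windows were searched on both strands for the cyclic AMP response element TGACGTCA, for its core TGACG, which every full element also holds, and for the palindromes of steroid receptors (GNACA and TGTNC, 3 bases apart) and of estrogen receptors (GGTCA and TGACC, 3 bases apart). The core was found in 2 of the 7 windows, those of Adrb1 and Adcy9, and in 20.8% of 32851 windows of the same length genome-wide. The other motifs were in none of the 7, against 1.79%, 0.475% and 0.07% of all windows. The 2 windows with a core are shown with it in capitals, 90 bases before the Adrb1 start (chr19:56721867-56722166, plus strand, 72.3% GC) and 24 bases before the Adcy9 start (chr16:4420449-4420748, minus strand, 78.3% GC).
Adrb1: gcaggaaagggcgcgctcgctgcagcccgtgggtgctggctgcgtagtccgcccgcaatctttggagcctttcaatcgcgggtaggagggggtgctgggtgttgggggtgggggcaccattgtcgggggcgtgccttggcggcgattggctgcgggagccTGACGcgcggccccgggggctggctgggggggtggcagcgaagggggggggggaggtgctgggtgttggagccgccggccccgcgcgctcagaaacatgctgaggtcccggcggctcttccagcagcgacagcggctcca
Adcy9: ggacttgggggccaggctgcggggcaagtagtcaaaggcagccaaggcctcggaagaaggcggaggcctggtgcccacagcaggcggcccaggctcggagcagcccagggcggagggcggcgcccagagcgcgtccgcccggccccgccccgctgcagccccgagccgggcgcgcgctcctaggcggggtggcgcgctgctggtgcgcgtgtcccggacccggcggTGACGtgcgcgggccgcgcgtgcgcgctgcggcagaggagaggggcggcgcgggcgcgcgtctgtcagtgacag
The 2 Adra1b windows are shown because this gene had the smallest unadjusted p of the 9 between the sexes. The outer one (chr11:43901188-43901487, minus strand) has 42.3% GC, and the inner one (chr11:43836440-43836739, minus strand), which lies inside the counted interval, has 71.3% GC, beside a median of 52.7% over all windows.
Adra1b outer start: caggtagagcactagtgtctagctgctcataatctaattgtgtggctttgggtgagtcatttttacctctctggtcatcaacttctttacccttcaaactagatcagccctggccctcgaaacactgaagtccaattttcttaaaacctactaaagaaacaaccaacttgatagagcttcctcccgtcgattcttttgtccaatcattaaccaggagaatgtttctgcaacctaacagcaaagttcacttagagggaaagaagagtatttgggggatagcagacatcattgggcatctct
Adra1b inner start: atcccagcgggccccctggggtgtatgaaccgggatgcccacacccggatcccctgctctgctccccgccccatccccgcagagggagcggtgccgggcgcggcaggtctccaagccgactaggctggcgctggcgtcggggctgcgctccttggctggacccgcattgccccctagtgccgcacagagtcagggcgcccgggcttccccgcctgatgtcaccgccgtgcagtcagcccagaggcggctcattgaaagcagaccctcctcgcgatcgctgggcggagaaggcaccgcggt

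Ranked by level per length, Chrm2 stood highest and Adrb3 lowest, at the edge of detection. Chrm2, the M2 receptor, averaged 14.3 ± 2.92 CPM per kb of gene body (mean ± SD, n = 15, as for all levels per kb here). Adcy6 followed at 8.17 ± 1.65 and Adrb1, the beta-1 receptor, at 5.66 ± 0.644 CPM per kb. A gap with no overlap of ranges separated these 3 genes from Adcy9 at 1.84 ± 0.286, Adcy5 at 1.72 ± 0.390, Grk5 at 1.38 ± 0.198, Adra1a at 1.10 ± 0.383 and Adra1b at 0.848 ± 0.174 CPM per kb. Neighbours within those 5 overlapped in range, as did Chrm2 with Adcy6 and Adcy6 with Adrb1. Adrb3, the beta-3 receptor of fat cells, stood at 0.00535 ± 0.00498 CPM per kb, below all libraries of Adra1b. Counting of introns and the length of the interval both enter a level per kb. The coding span covers 27.0% of the Adrb1 interval and 15.3% of the Adrb3 interval, but 100% of the interval of the other 7. Among the 8 genes above the floor, the highest library exceeded the lowest by the smallest factor for Adrb1 (1.42-fold) and by the largest for Adra1a (3.23-fold).

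**Figure D1:**
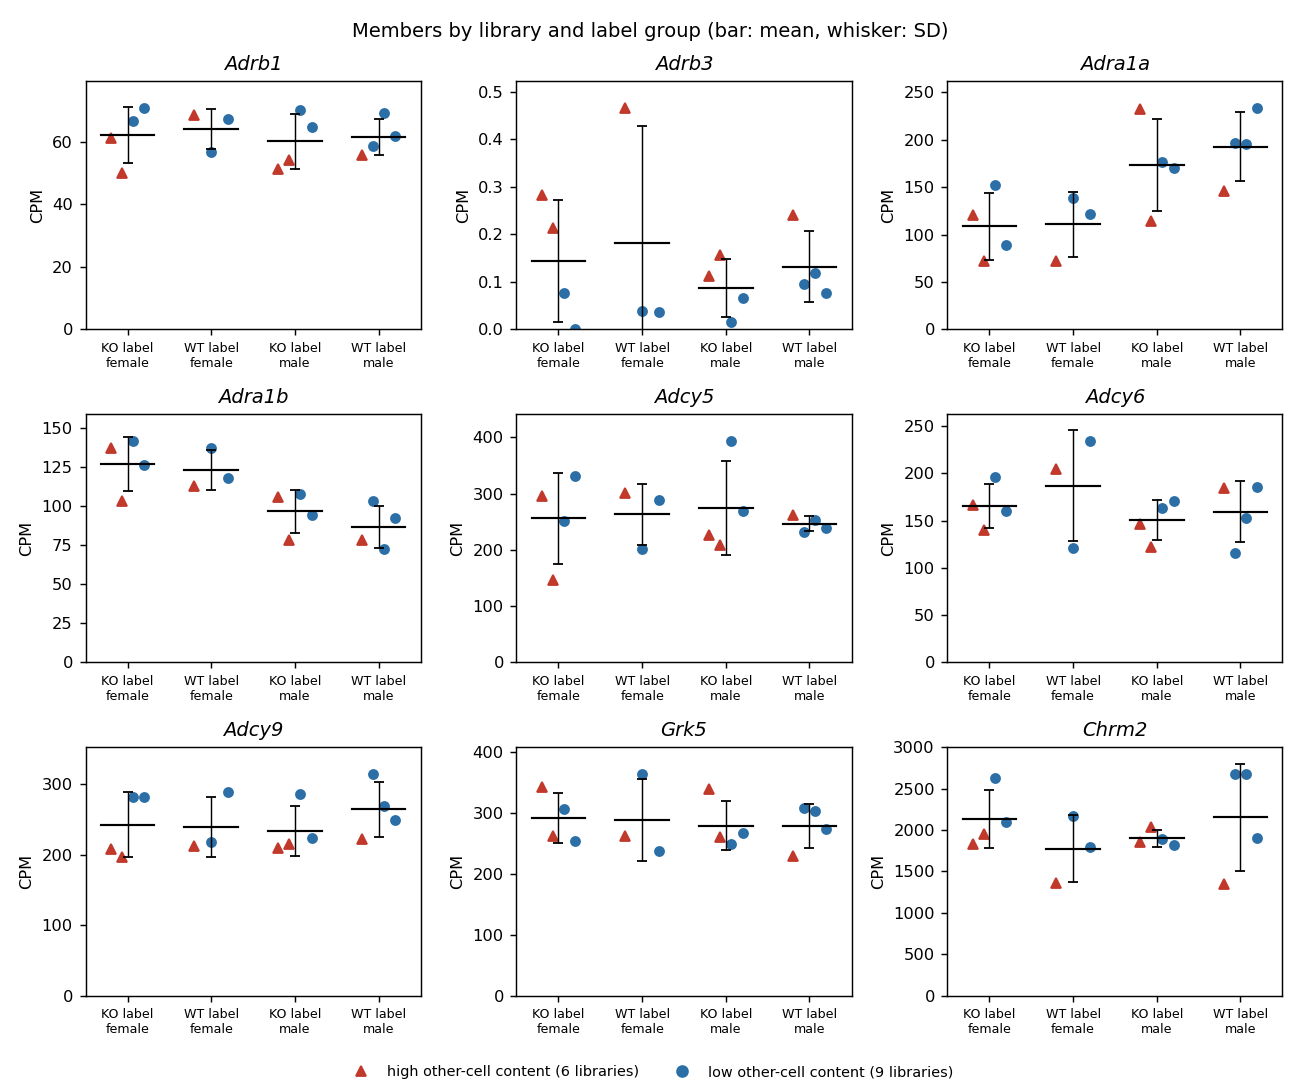
Level of each gene in CPM (vertical axis, linear from 0) in every library, by genotype label and sex. Triangles are the 6 libraries of high and circles the 9 of low other-cell content, bars are group means and whiskers SD. The female means lie lower for Adra1a and higher for Adra1b, and the triangles lie above the circles of their own group for Adrb3 and below them for Adcy9. High-content libraries lay on the same side in each group for 22.5% of tested genes.

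Between the genotype labels no member passed the test in either sex. The edgeR quasi-likelihood test called 0 of 9 at a Benjamini-Hochberg adjusted p below 0.05 in females, where the share called among all tested genes was 0%, and 0 of 9 in males, where it was 0.0115%. At an unadjusted p below 0.05 the count was also 0 of 9 in each sex, beside 1.74% and 1.42% of all tested genes, and DESeq2 called 0 of 9 in each, beside 0.0172% and 0.0229%. The groups of the 2 labels overlapped for every member in both sexes, while 1.92% of tested genes in females and 1.6% in males had groups that did not overlap. The median log2 fold change, knockout minus wild-type label, was -0.027 over the members and 0.025 over all tested genes in females, and -0.084 and 0.018 in males.

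Adrb1 (ENSMUSG00000035283, chromosome 19, 56722199 to 56733113, plus strand, with coding sequence in 1 exon) was the steadiest of the 9. It stood at 61.3, 49.95, 66.4 and 70.9 CPM in knockout females, against 68.5, 56.6 and 67.1 CPM in wild-type females. In males it stood at 51.3, 54.1, 70.1 and 64.7 CPM under the knockout label, against 55.7, 58.7, 69.1 and 61.9 CPM under the wild-type label. The label groups overlapped in both sexes, and the log2 fold change was -0.044 ± 0.14 (SE; 95% interval -0.35 to 0.26) in females and -0.029 ± 0.13 (-0.31 to 0.25) in males.

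Chrm2 (ENSMUSG00000045613, chromosome 6, 36388084 to 36528414, plus strand) had the widest label difference among the 8 genes above the floor. It stood at 1835, 1956, 2627 and 2095 CPM in knockout females, against 1358, 2171 and 1788 CPM in wild-type females. In males it stood at 1851, 2036, 1888 and 1813 CPM under the knockout label, against 1343, 2679, 2674 and 1909 CPM under the wild-type label. The lowest library of each sex was the wild-type replicate 1, of high other-cell content, and every pair of groups overlapped. The log2 fold change was 0.26 ± 0.23 in females and -0.18 ± 0.21 in males, and the difference between the sexes was 0.45 ± 0.31 (95% interval -0.22 to 1.11; edgeR unadjusted p = 0.174). For that difference 0 of 9 members were called, beside 0% of all tested genes. The first 2108 bases of its interval overlap 9330158H04Rik on the other strand.

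The label groups of the cyclases and of Grk5 overlapped as well. Adcy5 (ENSMUSG00000022840, chromosome 16, 35154877 to 35305738, plus strand) averaged 256 ± 80.3 CPM in knockout females (n = 4) and 263 ± 54.3 CPM in wild-type females (n = 3). In males Adcy5 averaged 274 ± 83.5 CPM under the knockout label and 246 ± 13.5 CPM under the wild-type label (n = 4 each), so its spread was narrow in 1 of the 4 groups. Adcy6 (ENSMUSG00000022994, chromosome 15, 98589973 to 98610076, minus strand), the second of the main myocyte cyclases, averaged 166 ± 23.0 and 187 ± 58.5 CPM in knockout and wild-type females. It averaged 151 ± 21.5 CPM in knockout males and 160 ± 32.6 CPM in wild-type males, and all 4 ranges overlapped. Adcy9 (ENSMUSG00000005580, chromosome 16, 4287529 to 4420498, minus strand), a cyclase insensitive to forskolin, averaged 242 ± 46.1 CPM in knockout and 240 ± 42.4 CPM in wild-type females. In males it averaged 234 ± 35.1 CPM under the knockout label and 264 ± 38.9 CPM under the wild-type label. Grk5 (ENSMUSG00000003228, chromosome 19, 60889749 to 61095968, plus strand), the receptor kinase, averaged 291 ± 41.0 and 288 ± 66.9 CPM in knockout and wild-type females and 279 ± 40.5 and 278 ± 36.4 CPM in knockout and wild-type males. Zfp950 overlaps 42129 bases of Grk5 on the other strand with 66550 reads of its own, against 233772 for Grk5, and the sources used here leave the strand setting of the counting unexplained. The log2 fold changes of these 4 genes lay between -0.18 and 0.16 in both sexes, and the widest of their 95% intervals, that of Adcy5 in females, ran from -0.60 to 0.52.

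The remaining receptors were not called between the labels either. Adra1a, the alpha-1A receptor, had log2 fold changes of -0.027 ± 0.29 in females and -0.15 ± 0.27 in males, and Adra1b, the alpha-1B receptor, of 0.049 ± 0.15 and 0.16 ± 0.14. For Adrb3 the estimates were -0.21 ± 1.05 in females (95% interval -2.48 to 2.05) and -0.62 ± 0.95 in males (-2.67 to 1.42), so a wide range of label differences was not detectable at its 0 to 16 reads per library.

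**Figure D2:**
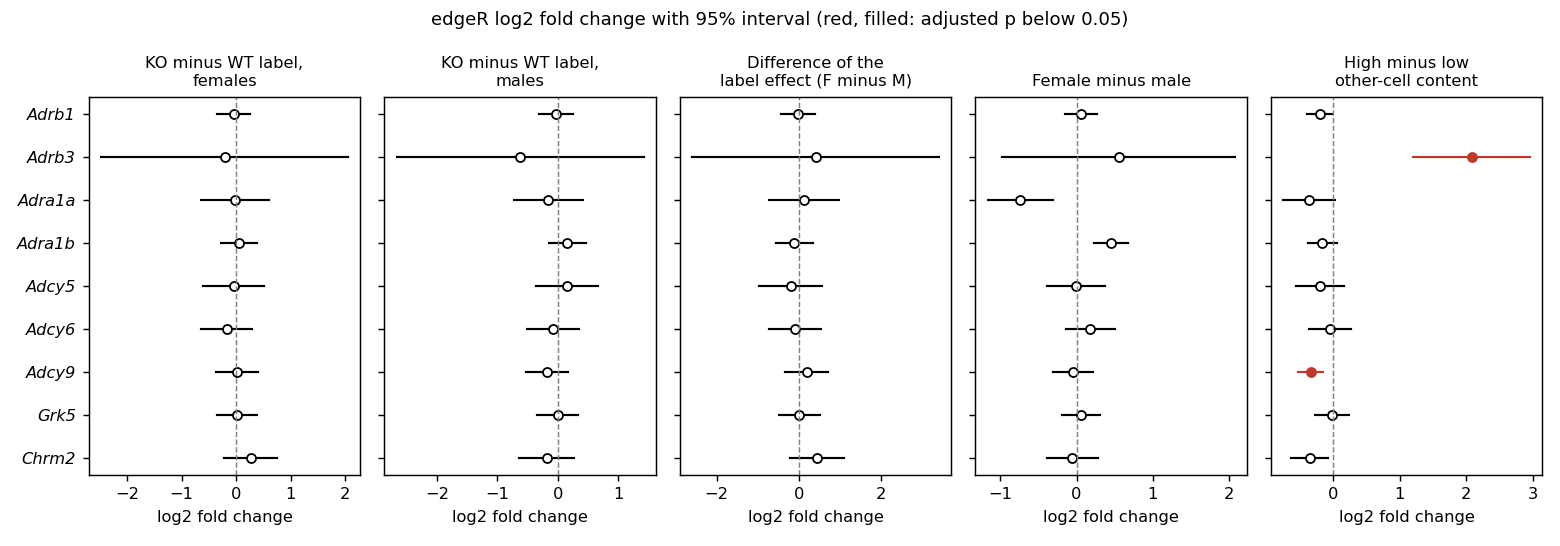
Log2 fold change of each gene (horizontal axis) with its 95% interval from edgeR in 5 comparisons, knockout minus wild-type label in females and in males, the difference of those effects, female minus male, and high minus low other-cell content. Filled red points passed an adjusted p of 0.05, which only Adrb3 and Adcy9 did, by other-cell content. Adrb3 had entered the tested set only through its high-content libraries.

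Between the sexes the 2 alpha-1 receptors had the smallest unadjusted p of the 9 members, Adra1a with a lower and Adra1b with a higher mean in females, although neither passed the adjusted edgeR test. Adra1a (ENSMUSG00000045875, chromosome 14, 66635251 to 66771168, plus strand) and Adra1b (ENSMUSG00000050541, chromosome 11, 43774606 to 43901210, minus strand) encode the alpha-1A and alpha-1B receptors, both coupled to Gq in myocytes. Adra1a stood at 121, 72.4, 152 and 89.4 CPM in knockout females, against 233, 114, 177 and 170 CPM in knockout males. Under the wild-type label it stood at 72.7, 138 and 122 CPM in females, against 146, 196, 196 and 234 CPM in males. The female libraries lay below every male one under the wild-type label, where 2.95% of tested genes had sexes that did not overlap, and overlapped with them under the knockout label. Adra1b stood at 137, 103, 142 and 126 CPM in knockout females, against 106, 78.1, 108 and 94.6 CPM in knockout males. Under the wild-type label it stood at 113, 137 and 118 CPM in females, against 78.5, 103, 72.8 and 92.1 CPM in males. The females lay above every male under the wild-type label and overlapped with them under the knockout label.

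Averaged over the labels, the log2 fold change of female minus male was -0.74 ± 0.20 for Adra1a (fold 0.601, edgeR unadjusted p = 0.00254, adjusted p = 0.560) and 0.45 ± 0.11 for Adra1b (fold 1.37, unadjusted p = 0.000794, adjusted p = 0.338). These were the 78th and the 41st smallest p of 17455, and edgeR called 0 of 9 members, beside 0.0917% of all tested genes. Over both labels the sexes overlapped for all 9, while 0.183% of tested genes did not overlap. At an unadjusted p below 0.05 there were 2 of 9, beside 4.51% of all tested genes. DESeq2 called Adra1b (adjusted p = 0.0150) but not Adra1a (adjusted p = 0.0573), where it called 0.384% of all genes tested. DESeq2 with other-cell content in the fit, an alternative added after seeing the data, called both (adjusted p = 0.00504 for Adra1b and 0.0167 for Adra1a), beside 0.613% of all genes. The other 7 members had log2 fold changes between -0.057 and 0.55, of which the largest was that of Adrb3 with an interval of -0.97 to 2.07. In the test for any difference among the 4 groups edgeR called 0 of 9, beside 0.0344%, and Adra1b had an unadjusted p of 0.00528 and Adra1a of 0.0178.

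The ratio of Adra1a to Adra1b reads, which does not depend on library scaling, separated the sexes in all 15 libraries. This ratio was chosen after the levels of both genes had been seen, so it is given without a test. It was 0.883, 0.701, 1.07 and 0.709 in knockout females, against 2.20, 1.46, 1.63 and 1.80 in knockout males. Under the wild-type label it was 0.643, 1.01 and 1.03 in females, against 1.85, 1.90, 2.69 and 2.54 in males. The highest female ratio was thus below the lowest male ratio, and the means were 0.864 ± 0.179 in females (n = 7) and 2.01 ± 0.431 in males (n = 8). Among all 140490703 pairs of the 16763 tested genes with reads in every library, 0.148% had ratios that did not overlap between the sexes. Sex-linked genes such as Xist are among these genes, and the share without them is not given here. Of the 28 pairs among the 8 members above the floor, this pair alone had ratios that did not overlap between the sexes. On the log2 scale the female mean lay 1.22 below the male mean, as it did without the 3 libraries holding reads of the other sex. Beside this, 0 of 12 endothelial and 0 of 12 fibroblast markers were called between the sexes, their median log2 fold changes were 0.26 and 0.44, and that of the 10 cardiomyocyte markers was -0.085. The part of these markers in the ratio was not tested.

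**Figure D3:**
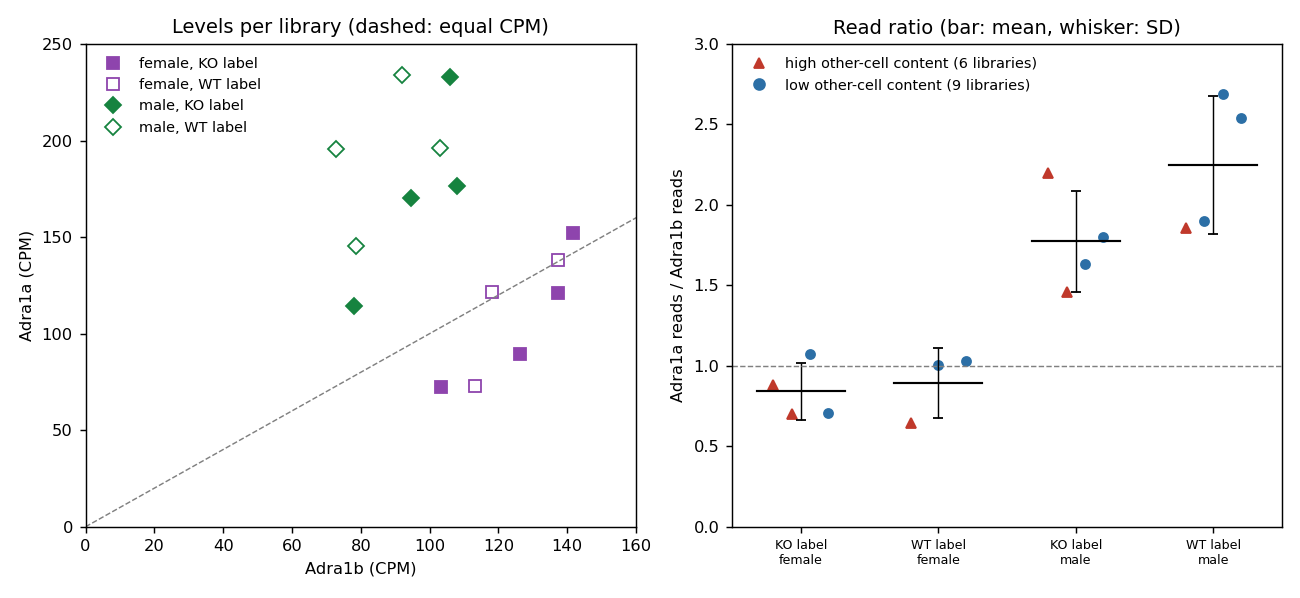
Left, Adra1a (vertical axis, CPM) against Adra1b (horizontal axis, CPM) in each library, with the dashed line at equal levels. Right, the ratio of Adra1a to Adra1b reads per library by label group with means and SD, from 0.643 to 1.07 in females and from 1.46 to 2.69 in males.

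By other-cell content, Adcy9 was the 1 member called among the 8 that had enough reads in the low-content libraries, and it was lower at high content. The filter on low counts asked for 0.200 CPM in 3 libraries, which 16181 of the tested genes reached in the 9 low-content libraries alone, and of these 17% were called higher and 8.68% lower. Over all 17455 tested genes 28.8% were called, 20.8% higher and 8.04% lower. The share of the members called was thus no higher than that of all genes. Adrb3 reached the minimum in 4 high-content libraries and in 0 low-content ones, so it entered the test only through the libraries in which it was high, and it is left out of these counts. The fit held the 4 group means and a term of content, which was defined from these libraries and is no group of the study. The median log2 fold change was -0.20 over the 8 members and -0.049 over the 16181 genes, of which 8 and 9131 lay below 0. The levels at high and low content overlapped for all 9, while 14.6% of tested genes did not overlap.

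Adrb3 (ENSMUSG00000031489, chromosome 8, 27225776 to 27250616, minus strand) had 102 reads in all. It had 14, 13, 3, 12, 12 and 16 reads in the 6 libraries of high content, in the order knockout females, knockout males, wild-type female and wild-type male, and 0 to 9 reads in the 9 of low content. The levels were 0.112 / 0.226 / 0.466 CPM at high and 0 / 0.0656 / 0.118 CPM at low content (lowest / median / highest), and 1 of the 6 and 5 of the 9 libraries had 3 reads or fewer. The ranges overlapped by 1 library each, and in each of the 4 groups every high-content library lay above every low-content one, a separation in 1 direction that 22.5% of tested genes had. The fitted log2 fold change, high minus low, was 2.08 ± 0.41 (95% interval 1.204 to 2.964). Its edgeR adjusted p of 0.00102 is no support, since the filter had favoured this direction. In edgeR without the filter, an alternative in which any gene with a read entered, the adjusted p was 2.25e-05 at a log2 fold change of 2.09. That p is no support either, as the share of all genes called in that fit is not given here. The pooled reads, 70 against 32, gave a ratio of 3.88 per library size (95% exact Poisson interval 2.52 to 6.09, counting error only). The adipocyte markers, 6 genes that include Adipoq and Plin1, summed to 0.822 to 2.33 CPM at high and 0.0256 to 0.182 CPM at low content. The 3 of these 6 that were tested, Adipoq, Plin1 and Cidec, had likewise entered only through high-content libraries, so their calls carry no weight, and their part in the Adrb3 levels was not tested. The reads cannot be assigned to the coding part of the interval, and Gm45470 overlaps it on the other strand with 140 reads.

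Adcy9 stood at 197 / 211 / 223 CPM at high and 218 / 282 / 315 CPM at low content. Only the wild-type female replicate 2, at 218 CPM, lay among the high-content values, and within each of the 4 groups every high-content library was below every low-content one. Such a separation in 1 direction was found for 22.5% of tested genes, and each wild-type group had only 1 high-content library. The log2 fold change was -0.34 ± 0.089 (95% interval -0.53 to -0.15, edgeR adjusted p = 0.00952). Adrb3 and Adcy9 both missed the threshold with the replicate number as a block (adjusted p = 0.256 and 0.258), where the log2 fold changes were 2.02 and -0.36. In that fit content was separated from replicate number only by replicate 2. There the high-content libraries carried the knockout label and the low-content ones the wild-type label, so the fit cannot settle either call.

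Chrm2 and Adrb1 also had lower fitted levels at high content, without passing in edgeR over all 15 libraries. In the 15 edgeR fits that each left out 1 library Chrm2 was called in 6, those without replicate 2, 3 or 4 of the knockout or wild-type males (adjusted p = 0.0310 to 0.0489), Adrb1 in 2, those without wild-type female replicate 1 or 2 (0.0282 and 0.0260), and Adra1a in 1, without knockout male replicate 1 (0.0150). Over all tested genes these fits called 3603 to 5509 by content, against 5028 with all 15 libraries. Chrm2 stood at 1343 / 1843 / 2036 CPM at high and 1788 / 2095 / 2679 CPM at low content, with a log2 fold change of -0.36 ± 0.13 (edgeR adjusted p = 0.0539). The 2 lowest libraries, wild-type replicate 1 of either sex, were of high content, and the other 4 of high content lay within the low-content range. Adrb1 stood at 49.95 / 54.9 / 68.5 CPM at high and 56.6 / 66.4 / 70.9 CPM at low content, with -0.20 ± 0.088 (adjusted p = 0.0981). DESeq2 called both (adjusted p = 0.0220 for Chrm2 and 0.0209 for Adrb1), where it called 35.8% of all genes. Adra1a had -0.36 ± 0.18 (adjusted p = 0.151), and the estimates of Adra1b, Adcy5, Adcy6 and Grk5 were -0.16, -0.20, -0.049 and -0.018 with adjusted p-values of 0.260 to 0.934. Beside these, 0 of 10 cardiomyocyte markers were called and their median log2 fold change was -0.020. The endothelial, fibroblast and mural markers defined the 2 content levels, so their difference is given as a description only. Endothelial markers summed to 358 to 733 CPM at high and 22.9 to 82.3 CPM at low content, fibroblast markers to 478 to 1255 and 48.5 to 180 CPM, and mural markers to 147 to 265 and 108 to 225 CPM. Of the markers outside the definition, leukocyte markers, 7 of 7 tested called higher, summed to 37.2 to 93.7 CPM at high and 7.19 to 30.8 CPM at low content, and atrial markers, 5 of 5 called higher, to 15.7 to 43.9 and 8.73 to 19.2 CPM. Of the tested glial, conduction and sympathetic neuron markers 1 of 3, 2 of 3 and 0 of 1 were called higher, beside 20.8% of all tested genes. The called glial marker had entered only through high-content libraries. The part of these cells in the lower levels was not tested.

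The other genes of the pathway, 110 in 7 lists, of which 103 were tested, gave 0 calls between the labels in females, in males, in the difference between the sexes and between the sexes, beside the same backgrounds as above. At an unadjusted p below 0.05 these comparisons had 3, 1, 4 and 7 of the 103, beside 1.74%, 1.42%, 2.49% and 4.51% of all tested genes. By other-cell content 44 of the 103 were called, 31 higher and 13 lower, beside 28.8% of all tested genes. Of the 31 higher ones 3 had entered only through the high-content libraries. With the replicate number as a block 25 were called higher and 0 lower, where the lower calls over all genes numbered 145, against 1404 without the block, so none of the lower calls below was made in that fit. Content was separated from replicate number there only by replicate 2, where it went with the genotype label. The leukocyte, endothelial and fibroblast markers that were higher in the same libraries are given above, and their part in these genes was not tested.

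Of the 9 receptors listed outside the members 4 were tested and 3 of those were called higher at high content, beside 20.8% of all tested genes. Among them were Chrm3, the muscarinic M3 receptor, at 33.6 ± 9.69 CPM at high and 3.12 ± 1.71 CPM at low content, and Adra2b, an alpha-2 receptor, at 0.254 ± 0.0836 and 0.0415 ± 0.0418 CPM (SD, n = 6 and 9). Adra2b reached the filter's minimum in 4 high-content and 0 low-content libraries, so its direction was set by the filter. Of the 7 tested cyclases 4 were called higher, Adcy7, Adcy4, Adcy3 and Adcy2, with log2 fold changes of 3.29 ± 0.22, 3.44 ± 0.24, 2.55 ± 0.23 and 3.10 ± 0.33. None of the 7 was called lower, although the lowest lay at -0.36. The members Adcy5, Adcy6 and Adcy9 lay below 0 on that scale, and of these only Adcy9 was called. Adcy7 stood at 13.2 ± 2.78 CPM at high and 1.46 ± 0.714 CPM at low content, and Adcy4 at 6.94 ± 0.915 and 0.684 ± 0.340 CPM. The G protein list had 9 of 20 higher and none lower, but 1 of the 9 had entered only through high-content libraries. Among the 9 were Gnai2, an inhibitory alpha subunit (1.24 ± 0.12), Gnao1 (0.88 ± 0.090), Gnb4 (2.67 ± 0.27) and Gng2 (1.99 ± 0.21). Of the receptor kinases, arrestins and RGS proteins 7 of 14 were higher and none lower, and again 1 of the 7 had entered only through high-content libraries. Rgs3 (2.26 ± 0.13), Arrb1 (2.68 ± 0.18), Arrb2 (2.23 ± 0.24) and Rgs4 (2.05 ± 0.26) had the smallest p.

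Downstream of cyclic AMP, 0 of the 16 myocyte targets of protein kinase A were called higher and 4 were called lower, beside 20.8% and 8.04% of all tested genes. The 4, none of them called with the replicate block, were Rrad, an inhibitor of the L-type calcium channel, at -0.49 ± 0.10, Pln, the brake on the calcium pump of the sarcoplasmic reticulum, at -0.46 ± 0.14, Ppargc1a, a coactivator of mitochondrial genes, at -0.44 ± 0.11, and Cacnb2, a calcium channel subunit, at -0.43 ± 0.11. Pln stood at 1227 ± 253 CPM at high and 1652 ± 314 CPM at low content. Of the 24 protein kinase A subunits, anchors and cyclic AMP sensors 3 were higher, Akap12 (3.33 ± 0.24), Prkar2b (2.35 ± 0.19) and Rapgef3 (3.34 ± 0.29), and 7 were lower, with Bves, a cyclic AMP binding protein of muscle membranes, at -0.35 ± 0.10, and with the block the counts of this list were 3 and 0. Of the 18 effectors of alpha-1 receptors 5 were called higher and 2 lower, shares near the 20.8% and 8.04% of all tested genes. The higher ones included Itpr3 (3.46 ± 0.29), Prkcb (2.61 ± 0.27), Plcb1 (1.18 ± 0.18) and Prkcd (0.74 ± 0.14). The 2 lower ones, named after their values were seen, were Mef2a (-0.35 ± 0.11) and Camk2d (-0.31 ± 0.11).

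**Figure D4:**
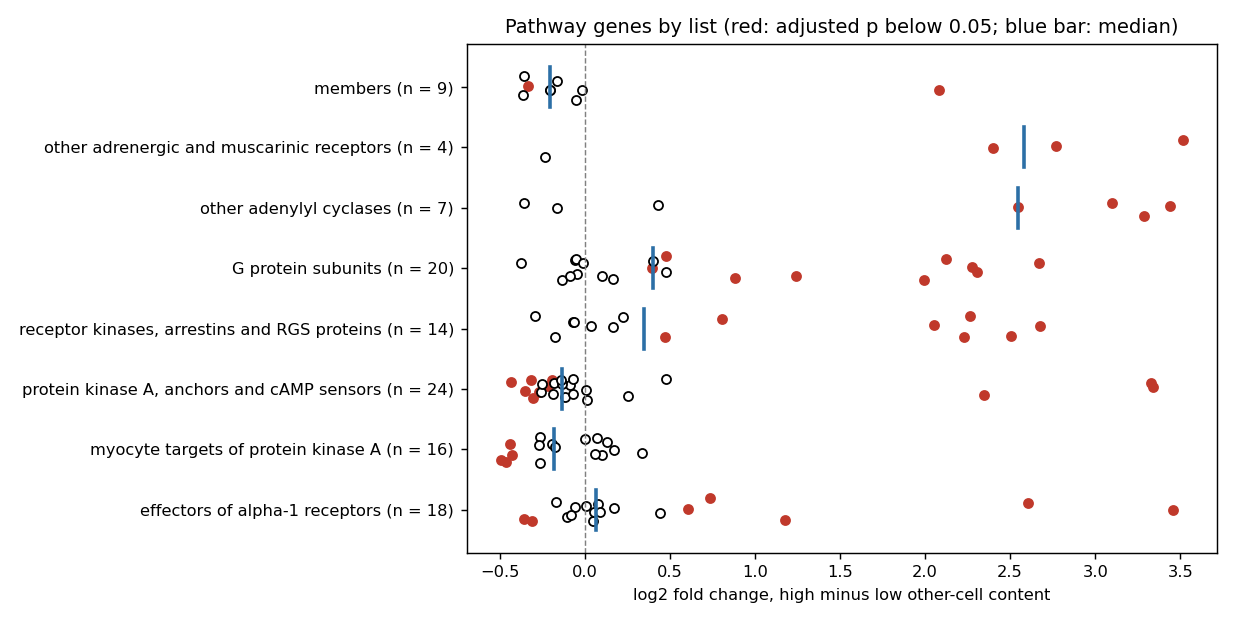
Log2 fold change of high minus low other-cell content (horizontal axis) for each tested gene of the 9 members and of the 7 pathway lists (rows). Red points passed an adjusted p of 0.05 in edgeR and blue bars are medians. The other receptors lie between -0.23 and 3.52 and the other cyclases between -0.36 and 3.44. The members lie between -0.36 and 2.08 and the myocyte targets of protein kinase A between -0.49 and 0.34. The upper end of the members is Adrb3 and that of the targets Ppp1r1a, which each entered the tested set only through high-content libraries.

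Genes whose level followed a member most closely were sought over the 9 libraries of low content by Pearson's r of log2 CPM, with r over the 6 of high content beside it. These are the highest of 17455 values over few libraries and are given as a description. For Adcy5 they were Gatad2a (0.966 at low and 0.994 at high content), Spred2 (0.962 and 0.800) and Trim26 (0.953 and 0.769), and for Adcy6 Pcnt (0.974 and 0.849), Pex26 (0.970 and 0.624) and Adamts7 (0.969 and 0.760). Chrm2 was followed by AW554918 (0.974 and 0.655), Ppp3ca (0.973 and 0.438) and Fer (0.970 and 0.524), and Adra1a by Nckap5 (0.925 and 0.764), Slc29a3 (0.914 and 0.329) and Nipa1 (0.906 and 0.399). For Adra1b they were Smim4 (0.955 and 0.710), Rgn (0.927 and 0.0115) and Hist1h4b (0.923 and -0.390), of which Rgn stood at 0.0327 to 0.231 CPM and Hist1h4b at 0.0236 to 0.267 CPM, around the floor of 3 reads, so that their r rests on a few reads. For Adrb1 they were Prkrip1 (0.951 and 0.0846), Mark3 (0.951 and 0.280) and Med26 (0.949 and 0.640). For Grk5 they were Mcm8, Zfp738 and Tceanc (0.947 to 0.956 at low content and -0.062 to 0.251 at high content), and for Adcy9 Ptpn9, Suv39h1 and Dcbld1 (0.891 to 0.921 at low content and -0.423 to -0.147 at high content). The genes nearest to Adcy5 and Adcy6 thus had r of at least 0.624 at both content levels, and those nearest to Adcy9 turned negative at high content.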

How the data were processed

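The deposited table holds raw counts per gene for 15 libraries. Per the submitters' processing notes, the authors used STAR 2.5.3a and featureCounts 1.5.0 on GRCm38, and per the file headers each gene has 1 interval. The strand setting is unexplained in the sources used here, although the kit is directional per the labels' protocols. Groups came from the labels. Counts were analysed in R 4.3.3 with edgeR 4.0.16 (filterByExpr, TMM, robust quasi-likelihood fit with 1 mean per group, 11 residual degrees of freedom), with p-values adjusted by Benjamini-Hochberg over 17455 tested genes and a threshold of 0.05. Other-cell content entered as a 2-level term beside the groups, from a mean of edgeR's log2 CPM with a prior count of 0.5 over the markers. The common dispersion was 0.163 without and 0.0434 with that term. DESeq2 1.42.0 with its size factors, no filter, a replicate block, leaving out each library, leaving out the 3 libraries that hold sex-linked reads against their label, the low-content libraries alone and other forms of the content score were tried as alternatives. The code was tested on simulated counts. Total counts of 24.4 to 139.4 M per library limit precision most for Adrb3. The exact Poisson interval and the floors cover counting error only, whereas the intervals of log2 fold changes come from the edgeR fit and hold the spread between libraries.

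The text names all 9 members and, from fixed lists of pathway genes, up to 4 called genes per list and comparison with the smallest p, plus marker genes where a level was needed and 3 genes of like pattern per member. The members and lists were chosen with earlier results of these data known. Replicate numbers were checked as pairs by correlating deviations from group means, which gave -0.382 to 0.749 between knockout and wild-type females, 0.139 to 0.734 between the male groups, 0.511 to 0.857 between knockout females and males, and 0.306 to 0.885 between wild-type females and males. The female groups did not count as paired and the other 3 pairs of groups did, from the data alone. Promoter windows came from RefSeq. The values of 1 gene of the receptor list are not reported here.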

Additional observations from a re-analysis of the deposited data

How the results depend on the processing

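Over 54 results of single members, 339 of 382 values under other settings and 721 of 810 with 1 library left out kept their direction and their side of the threshold. With no filter on low counts, Adra1a (adjusted p = 0.00462) and Chrm2 (0.00299) were also called by content, with the continuous score Adrb1 (0.0465), and with the replicate block Adra1b (log2 fold change -0.69, adjusted p = 0.0143). With the block, content was separated from replicate number only by replicate 2, where it went with the genotype label. The Adra1b call there thus cannot be read as one of content alone. Over all tested genes the continuous score gave 5141 calls. That total without the filter is not given here, so the calls of Adra1a and Chrm2 there carry no weight. In the test for any difference among the 4 groups DESeq2 with the content term called Adra1b (0.0270). Adcy9 was called in all 15 fits without 1 library (adjusted p at most 0.0313), as was Adrb3 (at most 0.00722), which the filter had favoured, and 9 calls of Chrm2, Adrb1 and Adra1a were gained there (0.0150 to 0.0489). Over all tested genes those fits gave 3603 to 5509 calls by content. Genes called in females numbered 0 in edgeR, 3 in DESeq2, 1 with the content term and 4 in DESeq2 with that term. In males they numbered 2, against 4 in DESeq2, 5 in DESeq2 with the content term, 0 without the 3 libraries whose sex-linked reads ran against the label, 0 in the low-content libraries alone and 0 to 1 without 1 library. For the difference between the sexes they numbered 0, and 1 in DESeq2 with and without the content term. Female minus male gave 16, against 67 in DESeq2, 26 with the content term, 107 in DESeq2 with it, 8 in the low-content libraries alone and 5 to 23 without 1 library. The 4 groups gave 6, against 50 in DESeq2, 14 with the replicate block, 14 with the content term, 67 in DESeq2 with it, 3 in the low-content libraries alone and 0 to 10 without 1 library. Content gave 5028 calls (72.1% higher), against 2200 with the replicate block (93.4% higher) and 6246 in DESeq2 (58.5% higher). With the block Adrb3 and Adcy9 lost their calls by content, as given above. Besides these losses and the gain of Adra1b, the block changed no call of a member. Among these results signs turned only where the member was not called, and the cause was not tested. In females the log2 fold change turned for Adcy9 (-0.0089) and Grk5 (-0.017) in DESeq2, Adrb3 (0.081) with the block, Adra1a without the 3 libraries (0.32), with the content term (0.058) and in DESeq2 with it (0.035), Grk5 in DESeq2 with it (-0.0044), and Adrb1 (0.15), Adcy5 (0.24) and Grk5 (-0.11) in the low-content libraries. In males it turned for Grk5 in DESeq2 (-0.0060), with the block (-0.0012) and at low content (-0.20), Adrb1 with the content term (0.014), in DESeq2 with it (0.022) and at low content (0.088), and Adcy6 at low content (0.14). For the difference between the sexes it turned for Grk5 in DESeq2 (-0.011) and in DESeq2 with the content term (-0.017), Adrb1 (0.017) and Adrb3 (-0.18) without the 3 libraries, and Adrb1 at low content (0.058). For female minus male it turned for Adcy5 in DESeq2 (0.0087), without the 3 libraries (0.16), with the content term (0.013) and in DESeq2 with it (0.027), for Adcy9 without the 3 libraries (0.079) and at low content (0.012), and for Chrm2 at low content (0.035). By content it turned for Adcy6 with the block (0.36) and for Grk5 without the 3 libraries (0.097). Without 1 library at a time the log2 fold changes that turned ranged in females from -0.11 to 0.21 for Grk5, -0.13 to 0.047 for Adrb1, -0.26 to 0.15 for Adra1a, -0.21 to 0.15 for Adcy5, -0.029 to 0.14 for Adra1b, -0.083 to 0.17 for Adcy9, -0.78 to 1.89 for Adrb3 and -0.42 to 0.025 for Adcy6. In males they ranged from -0.10 to 0.053 for Grk5, -0.11 to 0.039 for Adrb1, -0.33 to 0.0023 for Adra1a, -0.22 to 0.0040 for Adcy6 and -0.069 to 0.27 for Adcy5. For the difference between the sexes they ranged from -0.16 to 2.51 for Adrb3, -0.11 to 0.21 for Grk5, -0.10 to 0.077 for Adrb1, -0.10 to 0.31 for Adra1a, -0.36 to 0.027 for Adcy5 and -0.33 to 0.11 for Adcy6. For female minus male they ranged from -0.076 to 0.11 for Adcy5, -0.12 to 0.012 for Adcy9, -0.50 to 0.83 for Adrb3, -0.14 to 0.023 for Chrm2 and -0.043 to 0.11 for Grk5, and by content from -0.088 to 0.076 for Grk5 and -0.14 to 0.016 for Adcy6. Adra1a and Adra1b kept their direction between the sexes without 1 library (-0.83 to -0.62 and 0.40 to 0.50), as did the log2 of their read ratio (-1.28 to -1.15).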
